A study of Mus musculus with 2 samples.

Results

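The interleukin-6 (IL-6) family was followed in mouse liver through 10 genes, namely the ligands Il6, Osm and Lif, the receptor chains Il6ra, Il6st, Osmr and Lifr, the kinase Jak1, the transcription factor Stat3 and the inhibitor Socs3. Each symbol matched 1 entry of the count tables through the GRCm38 annotation, so all 10 of the 10 genes were found among 52636 Ensembl genes. Both groups were C57BL/6 mice of 9 weeks whose livers were taken 6 h after dosing per g body weight with the liver toxin D-galactosamine at 800 µg and the endotoxin lipopolysaccharide at 100 ng. One group was wild type (WT) and the other is labelled GBP5-/- (KO), a knockout of guanylate-binding protein 5, an interferon-inducible GTPase. How the allele was made is not given in the sources used here. RNA of 4 livers was pooled per genotype and sequenced as 1 library, so there is no replicate, no test and no p-value below, and the 95% intervals given reflect read counting alone. Both groups received the toxin and the endotoxin, and no untreated liver was analysed here.

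IL-6 family cytokines signal through the shared receptor chain gp130, the product of Il6st. IL-6 first binds its own receptor, the product of Il6ra, whereas leukemia inhibitory factor (Lif) and oncostatin M (Osm) bring gp130 together with the products of Lifr or Osmr. The receptor complex activates JAK kinases, which phosphorylate STAT3, and STAT3 switches on Socs3, whose product blocks the receptor and closes the loop. In the liver this route drives the acute-phase response of hepatocytes, while Il6 and Osm are made mainly by myeloid and other non-parenchymal cells.

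Promoter windows are shown for the 4 genes that passed a 2-fold difference before the correction described below. After it Lif and Socs3 fell short of 2-fold. The windows come from RefSeq (build GRCm38.p6), run from 250 bases before to 50 bases after a start site and matched 9 of the 10 genes, all but Osm. Capitals mark exact matches, on either strand, to the STAT motif TTCNNNGAA, the NF-kB motif, the C/EBP motif TTGCNNAA, the AP-1 motif TGANTCA or the cyclic AMP response element TGACGTCA. The Il6 window lies at chr5:30012864-30013163 (plus strand), that of Lif at chr11:4257318-4257617 (plus), that of Il6ra at chr3:89913147-89913446 (minus) and that of Socs3 at chr11:117969317-117969616 (minus).
Il6: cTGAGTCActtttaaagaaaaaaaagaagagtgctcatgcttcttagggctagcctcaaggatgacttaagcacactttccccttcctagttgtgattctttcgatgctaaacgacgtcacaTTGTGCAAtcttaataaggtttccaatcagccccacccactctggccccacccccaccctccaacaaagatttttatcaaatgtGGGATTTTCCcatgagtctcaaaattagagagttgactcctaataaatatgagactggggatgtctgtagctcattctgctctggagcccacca
Lif: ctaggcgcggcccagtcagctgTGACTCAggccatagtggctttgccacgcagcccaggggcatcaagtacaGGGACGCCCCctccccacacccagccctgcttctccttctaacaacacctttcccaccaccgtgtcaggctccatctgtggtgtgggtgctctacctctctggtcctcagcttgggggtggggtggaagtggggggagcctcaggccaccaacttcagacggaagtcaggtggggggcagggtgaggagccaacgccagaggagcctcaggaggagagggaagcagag
Il6ra: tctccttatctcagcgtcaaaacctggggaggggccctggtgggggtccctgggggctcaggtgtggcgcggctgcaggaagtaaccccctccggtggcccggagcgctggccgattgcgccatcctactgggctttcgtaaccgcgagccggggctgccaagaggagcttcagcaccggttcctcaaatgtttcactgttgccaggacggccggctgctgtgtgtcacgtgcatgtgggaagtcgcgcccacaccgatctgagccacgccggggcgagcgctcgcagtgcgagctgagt
Socs3: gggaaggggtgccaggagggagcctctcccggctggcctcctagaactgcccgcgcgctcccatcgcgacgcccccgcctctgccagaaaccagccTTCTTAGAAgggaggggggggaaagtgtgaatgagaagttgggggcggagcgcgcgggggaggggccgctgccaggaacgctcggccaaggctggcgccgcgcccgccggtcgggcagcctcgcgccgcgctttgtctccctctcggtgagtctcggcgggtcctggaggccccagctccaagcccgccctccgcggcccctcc
The Il6 window held 1 NF-kB match at -44 to -35 from the start site, 1 C/EBP match at -128 to -121 and 1 AP-1 match at -249 to -243. In Lif, an AP-1 match at -228 to -222 and an NF-kB match at -178 to -169 were found, the latter on both strands and counted once. Socs3 held a STAT match at -154 to -146, and Il6ra held no match to these letters. The Socs3 window lies wholly inside the gene's span given below, so its positions are from the RefSeq start site and not from the end of that span. Among the other 5 genes with a window, Jak1 had a TGACGTCA match and Osmr an AP-1 match, while Il6st, Lifr (with 2 windows) and Stat3 had none. Of 32851 windows in the table, 8.30% held the STAT motif, 8.46% the NF-kB motif, 10.8% the C/EBP motif, 7.81% the AP-1 motif and 1.79% TGACGTCA. A match describes letters and is not a measured binding site.

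The WT library held 19864848 reads assigned to Ensembl genes and the KO library 15750875, which makes WT 1.26 times as deep. The targeted gene Gbp5 was counted 3211 times in WT and 873 times in the library labelled KO, where it was 2.92-fold lower (2.71 to 3.15). Albumin, the defining hepatocyte transcript, stood at 38384 CPM in WT against 69250 in KO, where CPM is a gene's reads scaled to an equal library total. A gene was tested when its mean over both libraries reached 1 CPM, which 13453 genes did, and called when log2((KO + 0.5)/(WT + 0.5)) on CPM was at least 1 in size. By this rule 10.1% of tested genes were at least 2-fold lower in KO and 2.38% at least 2-fold higher, so 80.9% of the calls were on the lower side. The log2 difference was lower at higher GC content of a gene's transcripts, with a Spearman's rho of -0.49 across 12266 protein-coding genes (genes do not count as independent samples). When these were cut into 10 equal groups by GC content, the median difference was 0.30 in the lowest group and -0.85 in the highest. The 10 genes and most other named genes are therefore also given relative to the median of genes of like GC content and length, called the corrected difference below. On that scale 4.22% of tested genes were 2-fold lower and 2.79% higher, and 60.2% of the calls were lower. Any true genotype effect that tracks GC content or length would be taken out too.

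The 10 genes split, though not by role alone, since the receptor chains fell on both sides. All 3 ligands, the specific IL-6 receptor and Socs3 were lower in KO by about 2-fold or more, while gp130, the other 2 receptor chains, Jak1 and Stat3 differed by at most 1.18-fold. By the size rule 4 of the 10 genes were lower (Il6, Lif, Il6ra and Socs3) and 0 were higher, against 10.1% and 2.38% of all tested genes. Below 0 were 6 of the 10, and 54.5% of all tested genes. The median log2 difference of the 10 genes was -0.59, and that of all tested genes was -0.06. After the correction 2 of the 10 were 2-fold lower, Il6 and Il6ra, against 4.22% of tested genes, 5 were below 0, against 49.8%, and the median was -0.37. All 10 genes passed the filter on low values.

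**Figure D1:**
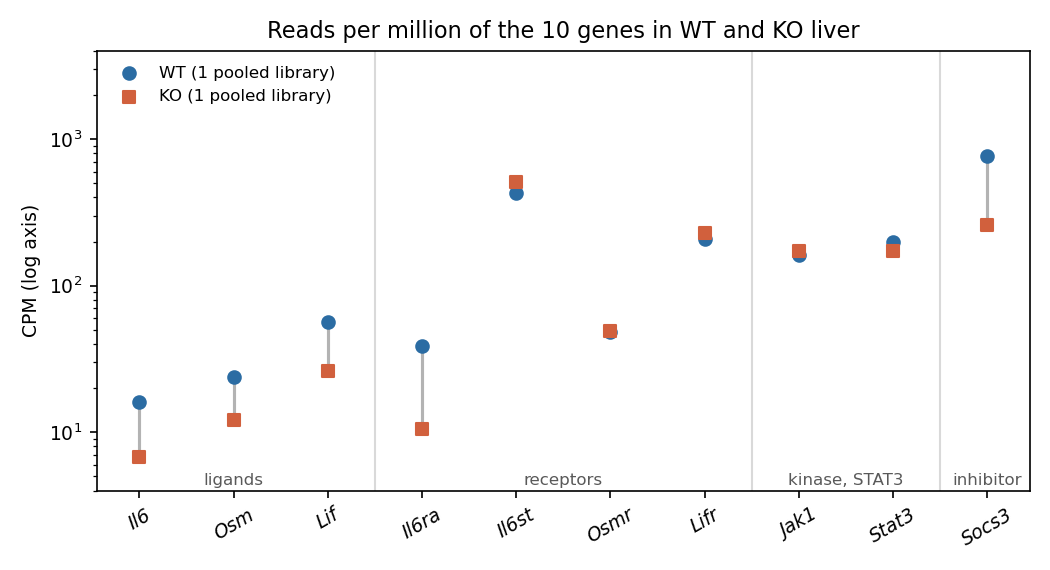
Level of each gene in CPM (log axis) in the WT library (circles) and the KO library (squares), ordered by role, with 1 pooled library per genotype and so no error bars. The grey lines are long for Il6, Osm, Lif, Il6ra and Socs3, which lie lower in KO, and the symbols nearly coincide for Osmr, Lifr, Jak1 and Stat3.

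Among the ligands, Il6 (ENSMUSG00000025746, GRCm38 chromosome 5, 30013114 to 30019981, plus strand) was counted 322 times in WT and 106 times in KO, at 16.2 and 6.73 CPM. It was 2.41-fold lower in KO, with an interval from 1.93 to 3.03. The GC content of Il6 transcripts is 38.6%, the lowest of the 10, and genes like it in GC and length had a median difference of 0.27. The log2 difference of Il6 was therefore -1.21 before and -1.47 after the correction, and 2.99% of the 402 tested genes in its bin were 2-fold lower.

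Lif (chromosome 11, 4257557 to 4272514, plus strand), a cytokine that acts through its own receptor chain and gp130, had 1129 and 414 reads, or 56.8 and 26.3 CPM. It was 2.16-fold lower (1.93 to 2.43), and its log2 difference went from -1.10 to -0.75 with the correction, short of 2-fold. Osm (chromosome 11, 4236420 to 4241026, plus strand), the oncostatin M gene, lies next to Lif with 16.5 kb between them. With 477 reads in WT against 190, Osm stood at 24 and 12.1 CPM, 1.99-fold lower (1.68 to 2.37). At a log2 difference of -0.96 it stood just outside the size rule while Lif at -1.10 stood just inside, and their intervals overlap. After the correction the order was reversed, with Osm at -0.93 and Lif at -0.75, both short of 2-fold. With GC content alone Osm stood at -0.59 and Lif at -0.89. Summed over the 3 ligands, the level was 97.1 CPM in WT against 45.1 in KO.

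The receptor chains differed from one another. Il6ra (ENSMUSG00000027947, chromosome 3, 89864059 to 89913196, minus strand), which gives IL-6 its specificity, had 767 and 165 reads, or 38.6 and 10.5 CPM. It was 3.69-fold lower in KO (3.11 to 4.39), the largest difference of the 10 genes, and only 1.11% of all tested genes lay below its log2 difference of -1.83. The corrected value was -1.54, and 6.73% of the 312 genes in its bin were 2-fold lower. An antisense gene, Gm42809, covers 2.80% of Il6ra's exonic bases, and the strand setting of the counting is not given in the sources used here. Counts per gene do not separate membrane-bound from soluble forms of the receptor.

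Il6st, the shared chain gp130 (chromosome 13, 112464070 to 112510086, plus strand), was counted 8571 times in WT and 8030 times in KO, at 431 and 510 CPM. It was 1.18-fold higher in KO (1.15 to 1.22), with a corrected log2 difference of 0.36. Lifr (chromosome 15, 7090614 to 7197489, plus strand) stood at 209 and 228 CPM, a ratio of 1.09 (1.04 to 1.14), with a corrected log2 difference of 0.13. Osmr (chromosome 15, 6813577 to 6874969, minus strand), its neighbour at a distance of 216 kb, stood at 48.1 and 49.3 CPM, 1.03 times as high in KO (0.932 to 1.13). On the log2 scale this was 0.04, and it was 0.01 after the correction and -0.09 with a correction for GC content alone. The lowest lower bound of these 3 ratios was 0.932, and the upper bound for Il6ra was 0.321.

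**Figure D2:**
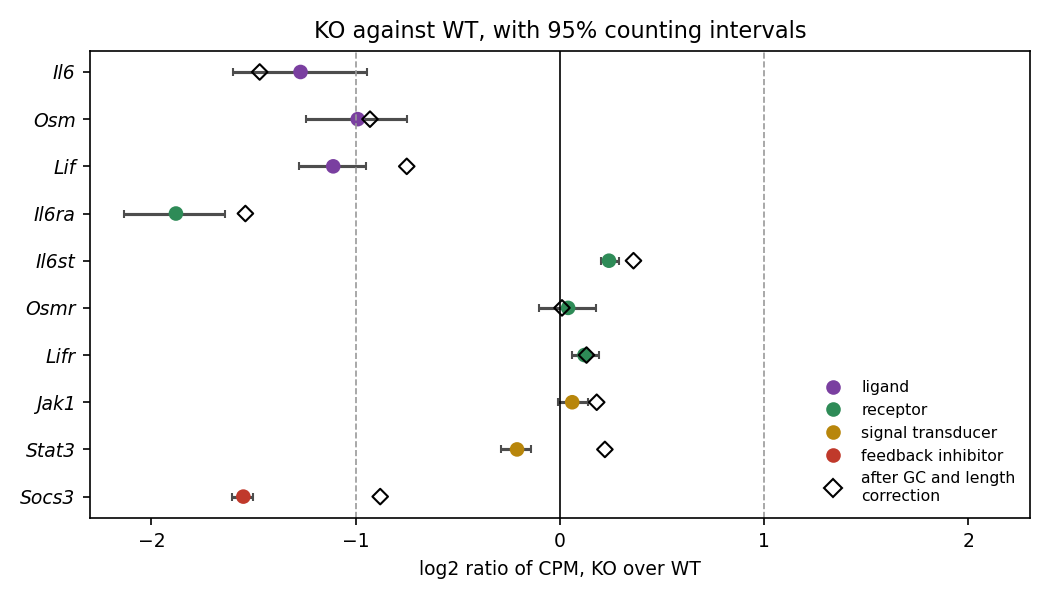
Log2 ratio of CPM, KO over WT, for each gene (filled circles, coloured by role) with its 95% counting interval, and the corrected log2 difference (open diamonds), with dashed lines at 2-fold. Il6ra and Il6 lie left of the lower dashed line on both scales, Socs3 and Lif only before the correction, and Il6st, Osmr, Lifr and Jak1 lie at or just right of 0.

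Of the signal transducers, Jak1 (chromosome 4, 101152367 to 101265282, minus strand), a kinase bound to gp130, had 3242 and 2688 reads, or 163 and 171 CPM. This gives a ratio of 1.05 (0.993 to 1.10), with a corrected log2 difference of 0.18. Stat3 (chromosome 11, 100885098 to 100939540, minus strand) had 3976 and 2717 reads, or 200 and 172 CPM, and was 1.16-fold lower (1.10 to 1.22). This small difference has no stable direction, since the log2 value of -0.21 became 0.22 after the correction for GC content and length and -0.12 for GC content alone. Stat3 shares 0.756% of its exonic bases with Stat5a and Jak1 0.0553% with Raver2, both on the opposite strand.

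Socs3 (ENSMUSG00000053113, chromosome 11, 117966079 to 117970047, minus strand), the feedback inhibitor, was the most abundant of the 10 genes, counted 15194 times in WT and 4105 times in KO, at 765 and 261 CPM. It was 2.93-fold lower (2.84 to 3.04), a log2 difference of -1.55. Its transcripts have 60.4% GC, the highest of the 10, and 32.3% of the 334 tested genes in its bin were 2-fold lower, against 10.1% of all tested genes. The corrected value was -0.88, or 1.84-fold lower, and -0.58 with GC content alone. Its relation to Stat3 also differed between libraries. Per length, as CPM divided by the exon length in kb (FPKM), Socs3 stood at 12.6 times the level of Stat3 in WT and at 4.98 times in KO. Ratios of FPKM here and below are not corrected for GC content. The corrected log2 differences were -0.88 for Socs3 and 0.22 for Stat3, or -0.58 and -0.12 with GC content alone.

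**Figure D3:**
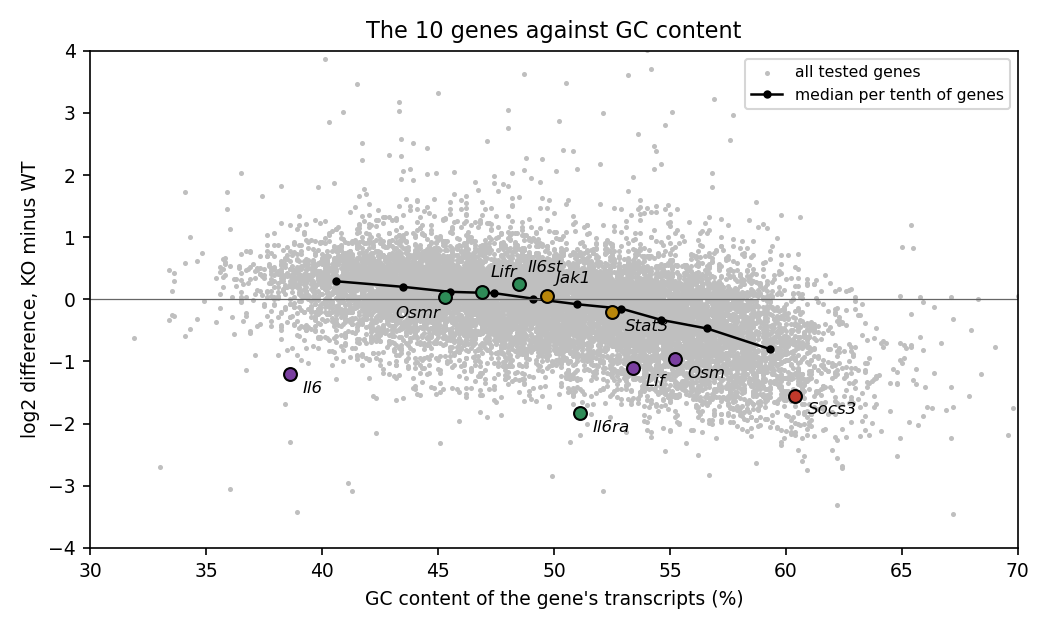
Log2 difference, KO minus WT, against the GC content of a gene's transcripts for all tested genes (grey) with the median of 10 equal groups of genes by GC content (black line) and the 10 genes in colour by role. Il6, at 38.6% GC, and Il6ra, at 51.1%, lie far below the black line, whereas Socs3, at 60.4%, lies in a range where the line itself is well below 0.

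In order of FPKM, the WT library ranked Socs3 first at 265, then Il6st at 38.9, Jak1 at 22.6, Stat3 at 21, Lifr at 19.4, Lif at 13.1, Osm at 10.6, Il6 at 6.68, Il6ra at 4.47 and Osmr at 3.97. In KO the order began with Socs3 at 90.1, Il6st at 45.9, Jak1 at 23.6, Lifr at 21.1 and Stat3 at 18.1 and ended with Lif at 6.04, Osm at 5.31, Osmr at 4.07, Il6 at 2.77 and Il6ra at 1.21. Osmr thus stood last in WT and above both Il6 and Il6ra in KO. The FPKM of gp130 was 8.70 times that of Il6ra in WT and 37.9 times in KO. The ratio of Lifr to Osmr differed little, at 4.88 and 5.18, as did that of Lif to Il6, at 1.96 and 2.18.

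Of the other ligands that use gp130 or belong to the family, 4 of 8 passed the filter, all 4 were below 0 and 3 were at least 2-fold lower. Counts in this list and those that follow stand beside 54.5% of all tested genes below 0, 10.1% 2-fold lower and 2.38% higher. After the correction these shares were 49.8%, 4.22% and 2.79%. Il27, the p28 chain of interleukin-27, had 169 and 17 reads and was 7.88-fold lower (4.78 to 13.9). Its partner chain Ebi3 had 171 and 57 reads and was 2.38-fold lower (1.75 to 3.27). Il11 had 60 and 10 reads, 4.76-fold lower (2.42 to 10.4), and Ctf1, the cardiotrophin-1 gene, was 1.55-fold lower (1.09 to 2.25), or -0.13 corrected. The 3 calls stood after the correction, with log2 differences of -2.38 for Il27, -1.68 for Il11 and -1.01 for Ebi3. Clcf1, Cntf and Il31 did not pass the filter, with 24 reads or fewer in each library.

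Among the other receptors, 3 of 4 passed the filter, all 3 were below 0, and Il27ra, the interleukin-27 receptor chain, was 2-fold lower. Il27ra had 158 and 50 reads, 2.51-fold lower (1.81 to 3.52), and stood at -1.20 on the log2 scale, or -0.94 corrected. Il11ra1 and Cntfr stood at -0.71 and -0.55, and at -0.09 and 0.12 after the correction. Of 8 further signal transducers 7 were below 0 and 2 were 2-fold lower, both JAK family kinases. Jak2 had 94.5 and 45.5 CPM, 2.08-fold lower (1.90 to 2.27), and stood at -1.27 after the correction. Tyk2 was 2.05-fold lower (1.79 to 2.35) but stood at -0.14 after the correction. The adaptor gene Sos1 had a ratio of 0.868 (0.729 to 1.03).

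Inhibitors of JAK and STAT signalling other than Socs3 lay on both sides, with 3 of 7 at least 2-fold lower and 0 higher. Ptpn1, a tyrosine phosphatase, was 2.66-fold lower (2.48 to 2.87), Socs1 2.36-fold (2.18 to 2.55) and the leukocyte phosphatase gene Ptpn6 2.07-fold (1.89 to 2.27). After the correction they stood at -0.81, -0.56 and -0.78, short of 2-fold for all 3. Cish, which encodes an inhibitor induced mainly through STAT5, went the other way, with 222 and 315 reads, 1.79-fold higher (1.5 to 2.13), and reached 1.41 after the correction. Pias1 was 1.29-fold higher (1.09 to 1.54). The 4 genes of IL-6 receptor shedding held 0 calls in either direction. Adam17, the main sheddase, had a ratio of 0.888 (0.788 to 1) and Adam10 one of 1.15 (0.990 to 1.34), or -0.26 and -0.03 corrected, while the rhomboid genes Rhbdf2 and Rhbdf1 stood at -0.80 and -0.49, or at 0.37 and 0.68 after the correction.

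Genes that regulate the Il6 transcript also split, with 2 of 7 at least 2-fold lower. Zc3h12a, an endonuclease that degrades Il6 mRNA, was 2.16-fold lower (1.93 to 2.42), and Arid5a, which stabilises Il6 mRNA, 2.15-fold lower (1.96 to 2.36). Their log2 differences became -0.73 and -0.22 after the correction. Nfkbiz, a nuclear cofactor needed for Il6 induction, stood at 194 CPM in both libraries, a ratio of 1 (0.954 to 1.05). Rc3h2 was 1.23-fold higher (1.06 to 1.43) and Elavl1 1.71-fold higher (1.51 to 1.94), or 0.03 and 0.58 corrected.

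STAT3 target genes were taken in a list of acute-phase genes of the liver and a list of other targets, mainly transcription, survival and growth genes. Of 21 acute-phase genes 17 were above 0, 1 was 2-fold higher and 0 were 2-fold lower, with a median of 0.28, or 0.27 after the correction. Of all tested genes 2.38% were 2-fold higher and 10.1% lower. Hamp, the hepcidin gene, was 2.13-fold higher (2.07 to 2.20) and Saa1, a serum amyloid gene, 1.75-fold higher (1.69 to 1.81), with corrected log2 differences of 1.02 and 0.85. Timp1, a protease inhibitor gene, was 1.62-fold lower (1.44 to 1.82) and Saa3 1.29-fold lower (1.24 to 1.34), at -0.73 and -0.50 after the correction. The 21 genes summed to 20844 CPM in WT against 25376 in KO. Hepatocyte markers had 5 of 6 above 0, with a range from Apoa1 at -0.01 to Alb at 0.85. They summed to 57977 and 94055 CPM, a ratio of 1.62 against 1.22 for the acute-phase genes. Most of that sum was Alb, at 38384 CPM in WT and 69250 in KO. The median log2 difference of the 6 markers was 0.61, or 0.48 corrected. What part hepatocyte RNA had in the acute-phase levels was not tested.

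Of the 13 other STAT3 targets 11 were below 0, 7 were at least 2-fold lower and 0 higher, with a median of -1.20. Among all tested genes 54.5% were below 0, 10.1% were 2-fold lower and 2.38% higher. Cebpb and Cebpd, transcription factors of the acute-phase response, were 3.32-fold (3.21 to 3.44) and 2.72-fold lower (2.57 to 2.89). Pim1, a survival kinase gene, was 3.22-fold lower (3.09 to 3.37) and Mcl1, an anti-apoptotic gene, 2.79-fold lower (2.65 to 2.93). After the correction these 4 were past 2-fold as well, at -1.30, -1.44, -1.42 and -1.47, against 4.22% of tested genes. On that scale 8 of the 13 were below 0, against 49.8%. Vegfa, which encodes a secreted growth factor, Il4ra, a surface receptor gene, and Junb, a transcription factor gene, stood at -1.43, -1.37 and -1.20, and at -0.96, -0.49 and -0.53 after the correction, when the median of the list was -0.53. At the other end Fos was 1.28-fold higher (1.23 to 1.33), and Bcl3 had a ratio of 1.05 (0.997 to 1.11). Their corrected log2 differences were 0.39 for Fos and 0.74 for Bcl3. Most of these genes also answer to other signals, so the list is not a readout of STAT3 alone.

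**Figure D4:**
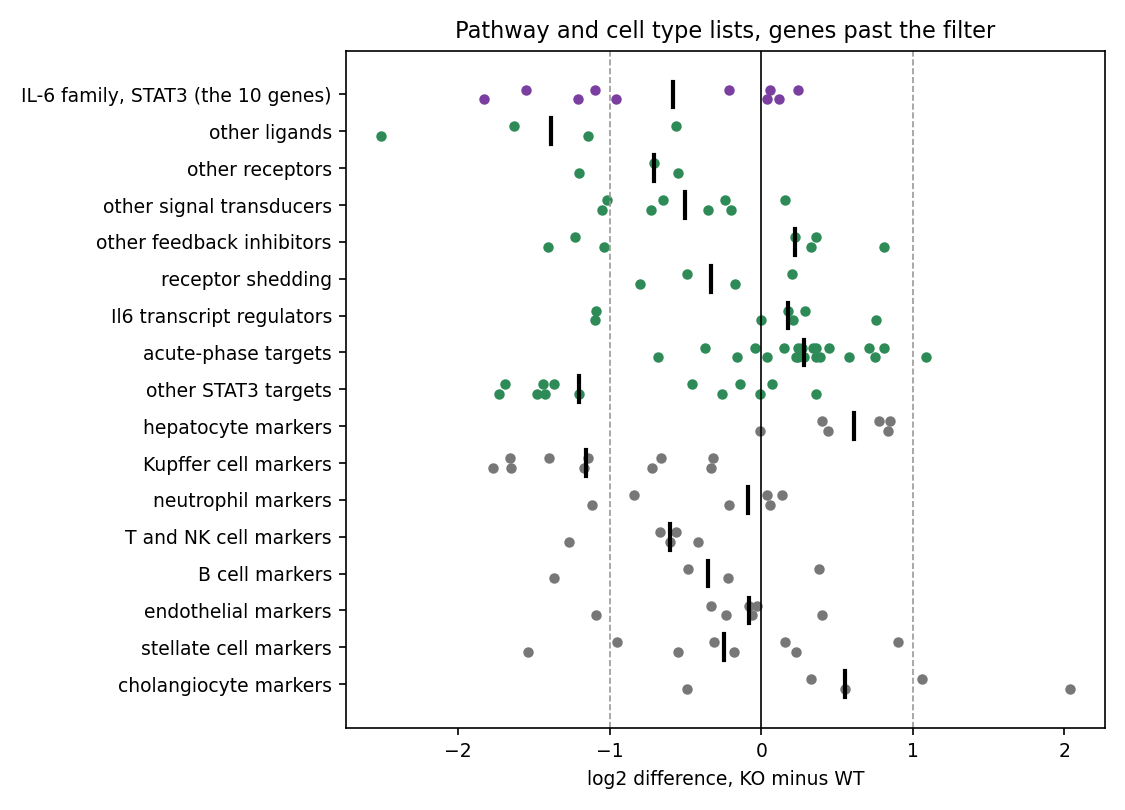
Log2 difference, KO minus WT, of each gene past the filter in the pathway lists (green), the cell type lists (grey) and the 10 genes (purple), with the list median as a black bar and 2-fold as dashed lines. Other STAT3 targets and Kupffer cell markers have medians left of the lower dashed line, and acute-phase targets and hepatocyte markers have medians above 0.

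Markers of the cells that make or answer these cytokines differed too, and in bulk liver fewer cells of a type and less RNA per cell cannot be told apart. All 10 Kupffer cell markers were below 0 and 6 were 2-fold lower, against 54.5% and 10.1% of all tested genes. They ranged from Marco at -1.77 to Vsig4 at -0.32. After the correction all 10 were again below 0 and 5 were 2-fold lower, with Marco at -1.73 and Vsig4 at -0.55. Their summed level went from 1479 to 601 CPM, 2.46-fold lower, beside 2.15-fold for the summed ligands. Clec4f, which marks Kupffer cells, was 2.26-fold lower (2.12 to 2.40), or -1.13 corrected. Neutrophil markers summed to 402 and 320 CPM, with S100a8 at a ratio of 1.04 (0.977 to 1.12). Of the 6 that passed the filter 1 was 2-fold lower, the cytokine receptor gene Csf3r at -1.12, and Retnlg was highest at 0.14. After the correction all 6 were below 0, with a median of -0.32, and Csf3r at -0.86 was short of 2-fold whereas Cxcr2, a chemokine receptor gene, went from -0.84 to -1.06. T and NK cell markers summed to 60.2 and 26.8 CPM, with 5 of 5 passing genes below 0, from Gzmb at -1.27 to Cd3e at -0.42, or -1.49 and -0.50 corrected. B cell markers summed to 10.2 and 6.98 CPM, with Ms4a1 highest at 0.38, or 0.08 corrected. None of the markers in these 4 lists was at 0 in either library. The part of these cells in the levels of Il6, Osm, Lif and Il6ra was not tested. Il6ra was 3.69-fold lower while the summed hepatocyte markers, mostly Alb, were 1.62-fold higher, with a median log2 difference of 0.61.

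Endothelial markers summed to 802 and 561 CPM with a median of -0.08, from Stab1 at -1.09 to Kdr at 0.40, and Stab2 was 1.17-fold lower (1.09 to 1.26). Stab1 alone went from 365 to 171 CPM. It stood at -0.21 after the correction, Stab2 at 0.06 and Kdr at 0.51, when 0 of the 7 were 2-fold lower. Stellate cell markers had a median of -0.24, from Col3a1 at -1.54 to Lrat at 0.90, or -1.53 and 0.61 corrected. Cholangiocyte markers had a median of 0.55, from Sox9 at -0.49 to Krt19 at 2.04, or -0.49 and 2.17 corrected. Of 6 exocrine pancreas markers 4 had no read in WT and 4 none in KO, while Ctrb1 had 0 and 297 reads.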

How the data were processed

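The build GRCm38 and the tools TopHat2 and HTSeq 0.6.1 were used, per the submitters' processing notes. Which annotation release, strand option and filters went with them is not given in the sources used here. Names of both files say FPKM, but the values deposited by the authors are whole-number read counts (2707 genes in WT have a value of 1), and were read as raw counts without normalization. Of 52845 entries 209 carried no Ensembl gene and were left out of totals, which removed 0.652% of WT counts and 0.496% of KO counts. Another 147 were not found in GENCODE M21 and kept their reads in the totals. The floor of 3 reads is 0.151 CPM in WT and 0.190 in KO.

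CPM used all Ensembl entries. Ratios of CPM carry exact 95% intervals (Clopper-Pearson, given the reads of both libraries together). They cover counting error between 2 libraries, and reads may be copies of 1 molecule. Calls used log2 differences with 0.5 CPM added, among genes at a mean of 1 CPM or more. This scale understates differences of low genes. FPKM was computed here from the union of a gene's exons. For the correction, genes were placed in 10 GC bins by 4 length bins, and the bin's median log2 difference, over genes with at least 100 reads, was subtracted. Named genes were the 10 genes and Gbp5, in each pathway list the 2 highest, the 2 lowest and any past 2-fold, in each marker list the highest and the lowest, and Il27, Socs1, Cebpd, Saa1, Hamp, Alb, Clec4f, S100a8 and Stab2. A few list genes enter the counts and sums but are not reported here by name. Nfkbiz, Zfp36, Cxcr2 and the genes below the filter lie outside this rule and were picked with their values in view. The genes and lists were chosen with earlier results of these data known. Alternatives were other pseudocounts, scalings, filters, corrections, FPKM with 1 added, protein-coding genes only and a 1.5-fold threshold. The steps were run on simulated counts with counting error alone, which does not cover the spread between animals or libraries. Python 3.11.15, numpy 2.4.6, pandas 2.3.3, scipy 1.17.1 and, for TMM factors alone, edgeR 4.0.16 in R 4.3.3 were used.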

Additional observations from a re-analysis of the deposited data

How the results depend on the processing

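With 1 library per genotype no library could be left out. No paired analysis was possible because each genotype has 1 library. The count of 4 genes 2-fold lower held, for the same genes Il6, Lif, Il6ra and Socs3, under both other pseudocounts and all 4 other scalings. Both other filters and protein-coding genes only kept all 10 genes and changed none of their values, so the count could not differ there. The count was 3, without Lif, on FPKM with 1 added, 5, with Osm, at a 1.5-fold threshold, and 2, Il6 and Il6ra, after either correction. The count of 0 genes 2-fold higher held in all 13 alternatives, including those that could not change it. The median of the 10 genes was -0.37 after the correction for GC content and length and -0.35 for GC content alone, and otherwise lay between -0.60 and -0.49. Over all tested genes, 1354 were 2-fold lower and 320 higher. The lower count was 567 and 635 after the corrections for GC content with and without length in that order, 747 on FPKM and 3042 at 1.5-fold. The higher count was 578 with totals without the 50 most abundant genes, 164 on FPKM, 575 with no filter, 114 at a mean of 5 CPM or more and 1225 at 1.5-fold. The lower share of calls was 80.9%, 60.2% and 60.1% after the 2 corrections, and 67.7% without the 50 most abundant genes in the totals. That last scaling moved the median of all genes from -0.06 to 0.04. Of 120 single values of the 10 genes under alternatives, 103 moved by less than their counting interval and 17 by more. The 103 include the values under other filters and protein-coding genes only, which could not move. Il6ra lay between -1.87 and -1.31 and Il6 between -1.49 and -1.03. Counts were smallest for Il6 and Il6ra in KO, at 106 and 165 reads, and the spread between animals or libraries was not measured.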

Other observations

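The 3′ untranslated regions of the 10 genes were searched for the pentamer ATTTA, the core of the AU-rich elements that mark many cytokine mRNAs for rapid decay, in the GENCODE transcript with the longest coding sequence. Il6 held 6 pentamers in 427 bases, or 14.1 per kb, a density that 0.392% of 12250 tested genes reached or passed, against a median of 1.21 per kb. Its densest stretch of 30 bases, from base 129 to 158 after the stop codon, is shown with the pentamers in capitals.
Il6: tttaattatttttaATTTAttgataATTTA
Osm held 6 pentamers in 1017 bases, or 5.90 per kb, which 4.47% of genes reached. Lif held 7 in 3180 bases, 2.20 per kb, and was the one gene of the 10 with the longer AU-rich nonamer, TTATTTA followed by A or T at both last bases, which it held 3 times and which 15.7% of genes hold. Socs3 held 4, at 2.71 per kb. The genes that differed little held pentamers as well, with 3.55 per kb in Jak1, 2.23 in Osmr, 1.74 in Lifr and 1.60 in Il6st. Il6ra, the gene with the largest difference, held 1, at 0.544 per kb, and Stat3 2, at 1.06 per kb. Whether these pentamers bear on the differences was not tested. Zfp36, whose product binds such elements, stood at 751 and 853 CPM, a ratio of 1.14 (1.11 to 1.16), and was chosen after its value was seen.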
